A study of Mus musculus with 8 samples.

Results

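The genes described here make up the machinery that brings proteins into mitochondria, trims and folds them there and removes damaged ones, with the proteins that fuse and divide the organelle. They were chosen by name from the count table: every gene whose symbol begins with Tomm or Timm, apart from pseudogenes, together with Pmpca, Pmpcb, Hspd1, Hspe1, Hspa9, Trap1, Lonp1, Clpp, Clpx, Yme1l1, Afg3l2, Spg7, Oma1, Grpel1, Phb, Phb2, Opa1, Mfn1, Mfn2 and Dnm1l. This gave 47 of the 56953 genes counted. A name is not a function, and a few members lie outside import: Timmdc1 is an assembly factor of respiratory complex I, Tomm34 is a largely cytosolic co-chaperone and Tomm6os is an antisense transcript beside Tomm6.

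RNA was sequenced from the brown adipose tissue (BAT) of 4 control mice (CTR) and 4 mice with cancer-associated cachexia (CAC). All were wild-type C57BL/6J, male or female (the sex of each sample was not analysed here), 8 to 10 weeks old at injection and housed at 21 °C. CAC mice received 3000000 Lewis lung carcinoma (LLC) cells, a mouse lung tumour line, under the skin of the right flank, and were followed for 21 days, whereas CTR mice received the PBS vehicle alone. LLC in 1 strain is a transplanted tumour model, and the RNA is that of bulk tissue with every cell type it holds. The labels number the samples without naming animals, so the p-values measure the spread between these samples.

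Nearly all mitochondrial proteins are encoded in the nucleus and enter through the outer membrane translocase (TOM). Proteins with a cleavable presequence pass on through the inner membrane translocase TIM23, pulled by the matrix HSP70 motor, while carrier proteins are guided by small Tim chaperones to the translocase TIM22. The matrix processing peptidase removes the presequence, chaperonins fold the product, and proteases of the matrix and inner membrane degrade what fails. Brown adipocytes are packed with mitochondria, whose inner membrane carries the uncoupling protein Ucp1.

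The CTR libraries held 2454493 to 4827956 counts each and the CAC libraries 1823167 to 3392538, and 28.5% to 33.8% of them fell on mitochondrially encoded genes. Expression is given as CPM, the counts of a gene after scaling libraries to the same effective size, where 3 counts equal 0.66 to 1.62 CPM. CPM compares samples for 1 gene, not the levels of different genes. All 10 brown adipocyte markers were detected, with a summed level of 18295 to 20421 CPM in CTR against 18226 to 20361 in CAC. Such a sum weighs most the markers with the most reads, so it can hide a change in a single marker. Of the markers of other cells, the neutrophil and macrophage sums did not overlap between the groups, and the muscle, erythrocyte and endothelial sums did. The 7 neutrophil markers summed to 6.39 to 6.72 CPM in CTR against 165 to 432 in CAC, the 7 macrophage markers to 195 to 216 and 270 to 369 CPM, the 5 endothelial markers to 239 to 309 and 199 to 280 CPM, the 10 skeletal muscle markers to 1241 to 2985 and 2696 to 4952 CPM, and the 5 erythrocyte markers to 6179 to 19267 and 14631 to 44313 CPM. None of these markers was at 0 in all libraries. The part of these cells in the values below was not tested, and in bulk RNA fewer cells of a type and less RNA per cell cannot be told apart.

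Of the 47 members, 44 passed the filter on low counts and were tested among 9876 genes. The main result was a single decrease, in Pmpcb, amid small differences elsewhere. In the quasi-likelihood test of edgeR, at an adjusted p (corrected over all genes tested) below 0.05, 1 member was lower in CAC, where 0.192% of all genes tested were lower, and 0 members were higher, where 0.739% of all genes were. At an unadjusted p below 0.05, 7 members (15.9%) were lower and 0 higher, beside 5.93% and 7.01% of all genes. The 7 were Pmpcb, Timmdc1, Phb2, Tomm40, Timm17a, Timm23 and Tomm22. Leaving out CTR replicate 1 or CTR replicate 2 reduced the unadjusted count to 3 (all lower) or 4 (3 lower, and Yme1l1 higher). The 3 lower members were then 6.82% of those tested, beside 4.48% and 4.10% of all genes in the same fits. DESeq2 gave 3 lower members (6.38%), beside 1.62% of all genes in its fit. That fit took in every gene with a read, without the filter on low counts, which 44 of the 47 members passed. The 1.62% is therefore not a like background for the members, nor comparable with the filtered shares.

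The log2 fold change of CAC against CTR was negative in 30 of the 44 tested members (68.2%) and in 50.0% of all genes. Its median was -0.11 over the members, with a range of -1.26 to 0.28, and -4.67e-05 over all genes. For 42 of the 44 the size of the estimate was under 0.5, and for 42 the 95% interval lay within a log2 change of 1 in either direction. The mean of log2(CPM + 1) over the tested members was 5.79, 5.76, 5.74 and 5.70 in CTR replicates 1 to 4 and 5.65, 5.61, 5.59 and 5.67 in CAC replicates 1 to 4. The groups did not overlap on this mean, which weighs each member equally, while over all genes tested it lay between 4.32 and 4.36 in every library. The groups did overlap on the number of tested members above their own median over the libraries. That number was 31, 25, 26 and 24 in CTR replicates 1 to 4 and 20, 17, 7 and 26 in CAC replicates 1 to 4. Both scores are given under the main scaling only. No test is given for either score, since the members were chosen with results of these data known.

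**Figure D1:**
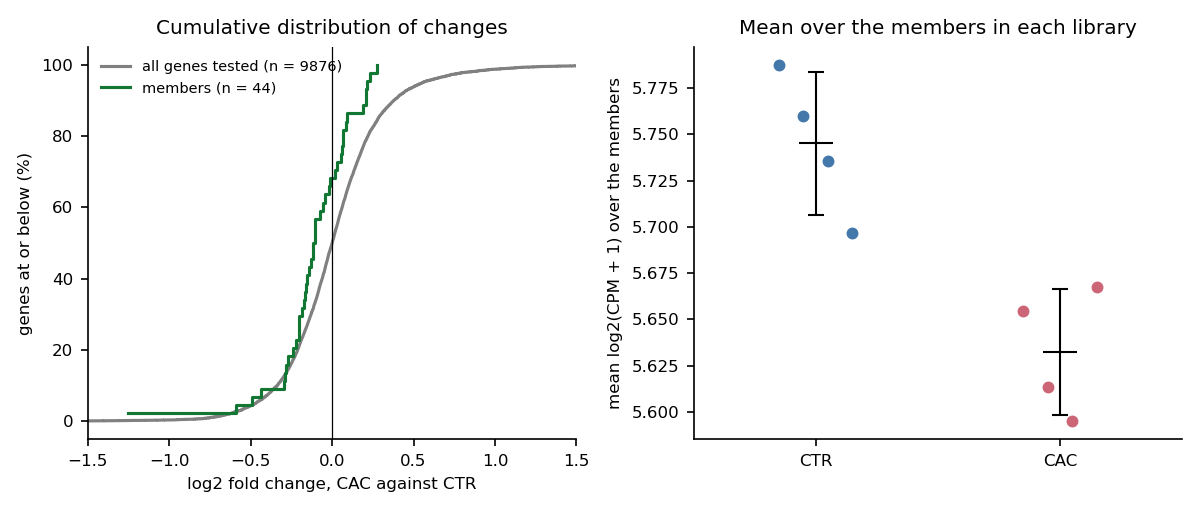
Left, the cumulative share of genes (%) at or below each log2 fold change of CAC against CTR, for the 44 tested members (green) and all 9876 genes tested (grey), shown between -1.5 and 1.5. Right, the mean of log2(CPM + 1) over the members in each library (points), with the group mean and SD (bars, n = 4) on an axis that does not start at 0. The member curve passes 68.2% at no change, and the CTR libraries lie between 5.70 and 5.79 against 5.59 to 5.67 in CAC.

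The matrix processing peptidase is a dimer of Pmpcb, its catalytic beta subunit, and Pmpca, the alpha subunit that binds the presequence. Pmpcb (ENSMUSG00000029017.14, a protein-coding gene at chr5:21737141-21757152 on the plus strand of GRCm38) was at 32.4, 33.3, 18.7 and 17.6 CPM in CTR replicates 1 to 4 and at 8.65, 9.04, 13.2 and 10.5 CPM in CAC replicates 1 to 4. Every CAC library lay below every CTR library, and CTR replicates 1 and 2 lay well above CTR replicates 3 and 4. The mean was 25.5 ± 8.50 CPM in CTR against 10.3 ± 2.05 CPM in CAC (SD, n = 4), so that CAC stood at 41.8% of CTR by the fitted fold change. The log2 fold change was -1.26 (standard error 0.23, 95% interval -1.75 to -0.77, adjusted p = 0.0113 by edgeR). Between 16 and 125 reads per library lay behind these values. Without CAC replicate 2 the log2 fold change was -1.20 with an edgeR adjusted p of 0.0508, and in the other fits that each left out 1 library Pmpcb kept its call.

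Pmpcb held whole counts in all 8 libraries and so no fractions of reads. The annotation places Gm15715 on the opposite strand, overlapping Pmpcb, and it had 0 counts in every library. The neighbouring gene Dnajc2, which lies 114 bases past the end of Pmpcb, was at 21.3 ± 2.17 CPM in CTR against 22.4 ± 7.96 CPM in CAC (adjusted p = 0.869 by edgeR). Its log2 fold change was 0.11, with a 95% interval of -0.30 to 0.53.

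Pmpca showed no such difference. It was at 43.9, 43.2, 61.4 and 52.0 CPM in CTR replicates 1 to 4 and at 50.8, 55.8, 47.5 and 54.4 CPM in CAC replicates 1 to 4, and the groups overlapped. Its log2 fold change of 0.06 had a 95% interval of -0.21 to 0.33 (adjusted p = 0.903 by edgeR). The log2 ratio of Pmpcb to Pmpca counts, which does not depend on how a library is scaled, was -0.44, -0.37, -1.71 and -1.56 in CTR replicates 1 to 4. In CAC replicates 1 to 4 it was -2.53, -2.59, -1.84 and -2.36. All CAC libraries lay below all CTR libraries, by a margin that was narrow between CTR replicate 3 and CAC replicate 3. The group means differed by -1.31 (exact two-sided permutation test over 70 assignments, p = 0.0286, the smallest p this design allows, and 0.0857 after adjustment over 3 ratios). The pair was chosen with the decrease of Pmpcb known, so this ratio describes that decrease and is not separate evidence of it.

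**Figure D2:**
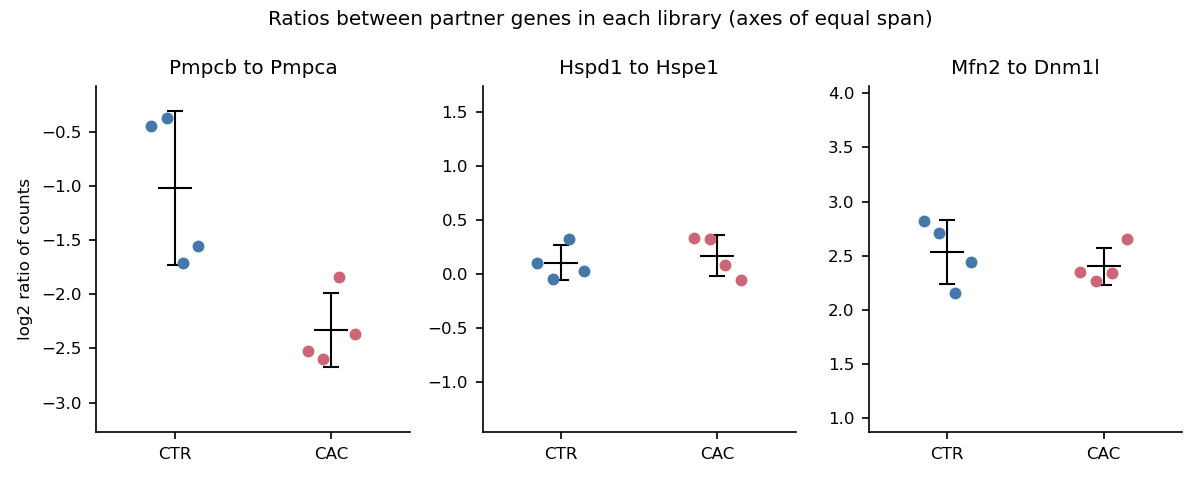
Log2 ratio of counts in each library (points) for Pmpcb to Pmpca, Hspd1 to Hspe1 and Mfn2 to Dnm1l, with the group mean and SD (bars, n = 4), on axes of the same span. The groups separate for Pmpcb to Pmpca, with means of -1.02 in CTR and -2.33 in CAC, and overlap for the other pairs.

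In the outer membrane translocase, 9 of 11 members were tested, and 8 had a negative log2 fold change, with a median of -0.22. Tomm40 (ENSMUSG00000002984.18), the channel through which precursors cross the outer membrane, was at 31.7, 30.6, 17.8 and 17.2 CPM in CTR replicates 1 to 4 and at 9.19, 19.1, 17.6 and 17.4 CPM in CAC replicates 1 to 4. CTR replicates 1 and 2 were high and CAC replicate 1 was low, while the other 5 libraries lay between 17.2 and 19.1 CPM. CAC differed from CTR by a log2 fold change of -0.59 (standard error 0.24, unadjusted p = 0.0254 and adjusted p = 0.297 by edgeR). In the test without the filter on low counts, which covers more genes, the adjusted p of Tomm40 was 0.0407.

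Tomm22 (ENSMUSG00000022427.5), the central receptor of the complex, was at 48.9, 58.6, 44.0 and 49.4 CPM in CTR and at 43.8, 46.8, 37.5 and 38.3 CPM in CAC. The groups met at their edges, with CTR replicate 3 below CAC replicate 2. Its log2 fold change of -0.29 had a 95% interval of -0.55 to -0.03 (unadjusted p = 0.0327 and adjusted p = 0.326 by edgeR). Tomm20, the presequence receptor, averaged 30.9 ± 4.74 CPM in CTR against 25.1 ± 2.15 CPM in CAC (SD, n = 4, adjusted p = 0.464 by edgeR). Tomm70a, the receptor preferred by carrier precursors, averaged 59.1 ± 3.36 and 57.0 ± 5.54 CPM, with a log2 fold change of -0.04 and a 95% interval of -0.28 to 0.20. The small subunits Tomm5, Tomm6 and Tomm7, which stabilize the pore, had log2 fold changes of -0.22, -0.14 and -0.15, none past the test, and Tomm7 held fractions of shared reads in every library. Of the paralogues, Tomm20l lay between 6.84 and 9.59 CPM in CTR and between 4.79 and 7.03 CPM in CAC, and Tomm40l had a log2 fold change of 0.02.

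The presequence translocase and its motor counted 8 members, all tested, of which 6 had a negative log2 fold change (median -0.09). Timm23 (ENSMUSG00000013701.14), the core subunit that receives presequences at the inner membrane, was at 47.1, 42.6, 43.6 and 41.5 CPM in CTR and at 33.5, 30.8, 39.0 and 38.3 CPM in CAC. All CAC libraries lay below all CTR libraries. The log2 fold change was -0.29 (95% interval -0.54 to -0.03, unadjusted p = 0.0317 and adjusted p = 0.323 by edgeR), and Timm23 held fractions of shared reads in every library.

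Timm17a (ENSMUSG00000062580.10), a membrane partner of Timm23, was at 60.5, 62.9, 58.1 and 54.5 CPM in CTR and at 40.0, 48.4, 43.7 and 58.9 CPM in CAC. Only CAC replicate 4 reached into the CTR range. It gave a log2 fold change of -0.30 (unadjusted p = 0.0291 and adjusted p = 0.316 by edgeR). Timm17b, its paralogue, averaged 53.1 ± 4.36 CPM in CTR against 55.9 ± 7.22 CPM in CAC (SD, n = 4), with a log2 fold change of 0.07 and a 95% interval of -0.19 to 0.32, and the difference between the paralogues was not tested. Of the motor, the HSP70 chaperone Hspa9 averaged 313 ± 28.1 and 301 ± 13.8 CPM, and its nucleotide exchange factor Grpel1 84.4 ± 5.01 and 72.9 ± 9.47 CPM (adjusted p = 0.862 and 0.485 by edgeR). Timm44, which tethers Hspa9 to the channel, and Timm50, the presequence receptor facing the intermembrane space, had log2 fold changes of -0.10 and -0.08. Timm21, which links the translocase to TOM, lay between 7.05 and 10.1 CPM in the CTR libraries and 7.62 and 11.9 CPM in the CAC libraries, and its log2 fold change of 0.22 had a wide 95% interval of -0.26 to 0.69.

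Of the carrier translocase and the small Tim chaperones, 8 of 9 members were tested and 0 passed the test at an unadjusted p below 0.05. Timm13 (ENSMUSG00000020219.8), a small Tim that escorts hydrophobic precursors across the intermembrane space, had the smallest p. It was at 159, 157, 149 and 146 CPM in CTR and at 153, 121, 133 and 123 CPM in CAC, so that CAC replicate 1 lay within the CTR range and the other 3 CAC libraries below it. CAC differed from CTR by a log2 fold change of -0.20 (unadjusted p = 0.0601 and adjusted p = 0.413 by edgeR). Its usual partners Timm8a1 and Timm8b had estimates of opposite sign, 0.23 and -0.21, with 95% intervals of -0.07 to 0.54 and -0.47 to 0.06. Timm9 and Timm10, the other small Tim pair, had log2 fold changes of -0.13 and -0.19, and Timm10b, which docks them on the carrier translocase, 0.21. Timm22, the channel of that translocase, averaged 39.5 ± 1.14 CPM in CTR against 37.0 ± 6.43 CPM in CAC (SD, n = 4), and its subunit Timm29 15.3 ± 1.55 and 14.2 ± 5.21 CPM.

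Timmdc1 (ENSMUSG00000002846.10), named like the Tim proteins but known as a complex I assembly factor, was at 14.4, 18.4, 13.3 and 16.1 CPM in CTR and at 9.73, 13.8, 9.96 and 11.5 CPM in CAC. Only CAC replicate 2 reached above the lowest CTR library. It gave a log2 fold change of -0.49 (standard error 0.19, unadjusted p = 0.0182 and adjusted p = 0.265 by edgeR), on 18 to 73 reads per library.

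**Figure D3:**
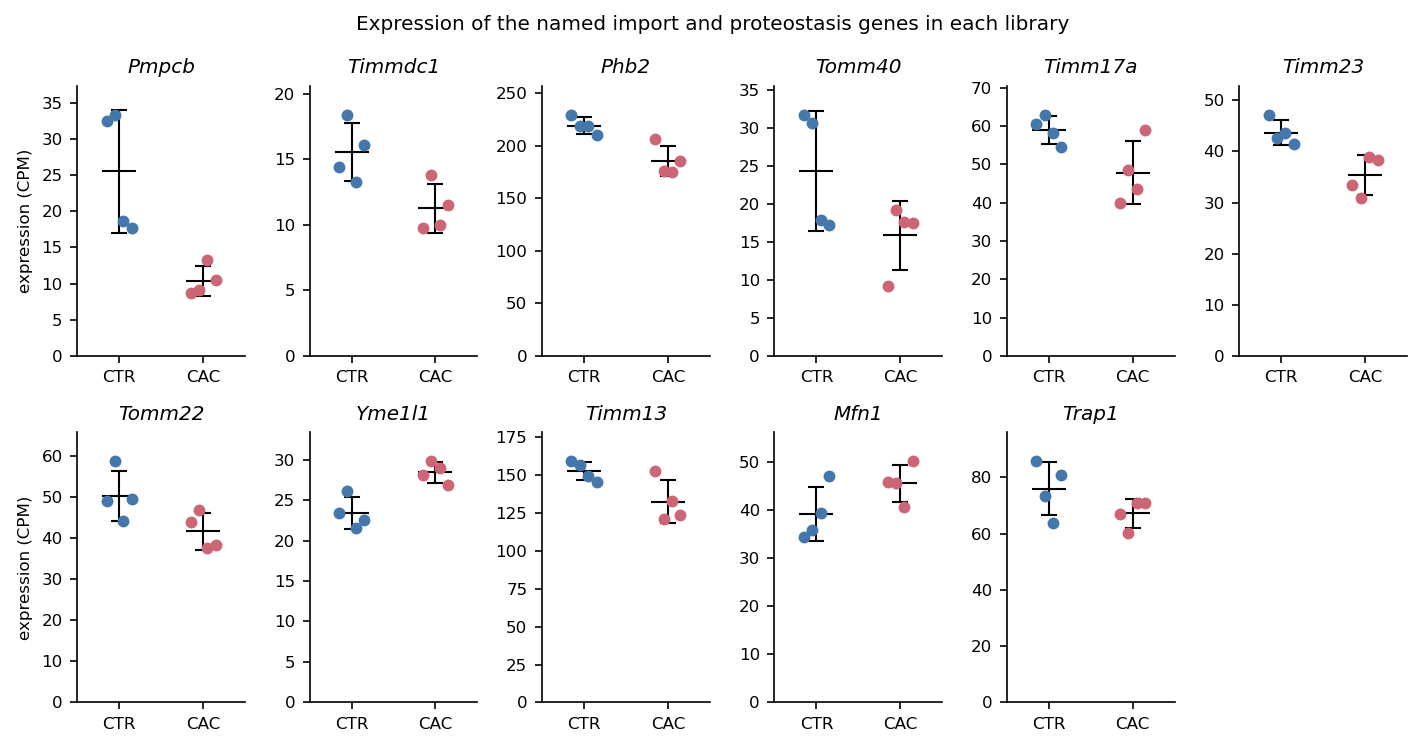
Expression (CPM, axes from 0) of 11 members in each library (points), with the group mean and SD (bars, n = 4). They are the members with an unadjusted p below 0.05 and, in each role, the member with the smallest p. Pmpcb, Phb2, Timm23 and Yme1l1 separate the groups, and Pmpcb and Tomm40 show CTR replicates 1 and 2 above CTR replicates 3 and 4.

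Among the matrix chaperones no difference passed the test. Hspd1, the chaperonin, averaged 303 ± 11.8 CPM in CTR against 315 ± 47.8 CPM in CAC (SD, n = 4), with CAC replicate 1 at 386 CPM and every other library between 282 and 316 CPM. Hspe1, the co-chaperonin that caps it, averaged 283 ± 24.7 and 279 ± 35.6 CPM, with a log2 fold change of -0.02 and a 95% interval of -0.24 to 0.20. All 3 chaperones held fractions of shared reads in at least 1 library. The log2 ratio of Hspd1 to Hspe1 was 0.10 ± 0.16 in CTR and 0.17 ± 0.19 in CAC, a difference of 0.07 (exact two-sided permutation test, p = 0.714).

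Trap1 (ENSMUSG00000005981.12), a mitochondrial chaperone of the HSP90 family, had the smallest p of the 3 chaperones. It was at 85.7, 73.5, 63.9 and 80.7 CPM in CTR and at 67.0, 60.1, 70.9 and 70.8 CPM in CAC, with overlapping groups. CAC differed from CTR by a log2 fold change of -0.17 (unadjusted p = 0.153 and adjusted p = 0.569 by edgeR).

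The 7 proteases gave 4 negative and 3 positive log2 fold changes, from -0.16 to 0.28, and 0 passed the test at an unadjusted p below 0.05. Yme1l1 (ENSMUSG00000026775.10), the inner membrane protease that faces the intermembrane space and cleaves Opa1, was at 23.4, 26.1, 21.6 and 22.5 CPM in CTR and at 28.1, 29.8, 29.0 and 26.8 CPM in CAC. Every CAC library lay above every CTR library, which held for 3.64% of all genes tested in this direction and for Yme1l1 alone of the members. Its log2 fold change of 0.28 had a 95% interval of -0.01 to 0.56 (unadjusted p = 0.0600 and adjusted p = 0.413 by edgeR). In the opposite direction 3 members did not overlap, Pmpcb, Phb2 and Timm23, beside 3.4% of all genes.

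Oma1, the other protease that cuts Opa1, averaged 11.2 ± 2.73 CPM in CTR against 11.2 ± 1.26 CPM in CAC (SD, n = 4), and the 95% interval of its log2 fold change ran from -0.42 to 0.48. Of the matrix proteases, Lonp1 averaged 77.9 ± 8.68 and 69.2 ± 6.05 CPM, and Clpp 93.9 ± 1.84 and 87.3 ± 6.29 CPM. Clpx, the unfoldase that feeds Clpp, had a log2 fold change of 0.09. Spg7 and Afg3l2, the subunits of the inner membrane protease that faces the matrix, each had a log2 fold change of -0.12.

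Prohibitins form ring-shaped scaffolds in the inner membrane from Phb and Phb2. Phb2 (ENSMUSG00000004264.18) was at 229.6, 219, 219 and 210.1 CPM in CTR and at 206, 177, 175 and 185 CPM in CAC. The lowest CTR library stood just above the highest CAC library, so the groups did not overlap. The log2 fold change was -0.24 (standard error 0.10, 95% interval -0.44 to -0.04, unadjusted p = 0.0196 and adjusted p = 0.274 by edgeR). Phb averaged 132 ± 5.50 and 131 ± 17.5 CPM, with a log2 fold change of -0.01 and a 95% interval of -0.24 to 0.21. Whether the prohibitins differ from each other in response was not tested.

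The 4 genes of fusion and fission all had positive log2 fold changes (median 0.14), and 0 passed the test at an unadjusted p below 0.05. Mfn1 (ENSMUSG00000027668.14), a GTPase that fuses outer membranes, was at 34.5, 36.0, 39.4 and 47.2 CPM in CTR and at 45.9, 45.7, 40.7 and 50.2 CPM in CAC. CTR replicate 4 lay among the CAC libraries. It gave a log2 fold change of 0.21 (unadjusted p = 0.128 and adjusted p = 0.541 by edgeR). Mfn2, its paralogue, averaged 150 ± 7.58 CPM in CTR against 160 ± 9.85 CPM in CAC (SD, n = 4), the inner membrane fusion GTPase Opa1 78.6 ± 4.20 and 82.4 ± 5.05 CPM, and the fission GTPase Dnm1l 26.4 ± 6.78 and 30.2 ± 4.35 CPM. The log2 ratio of Mfn2 to Dnm1l was 2.53 ± 0.30 in CTR and 2.40 ± 0.17 in CAC (exact two-sided permutation test, p = 0.514).

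**Figure D4:**
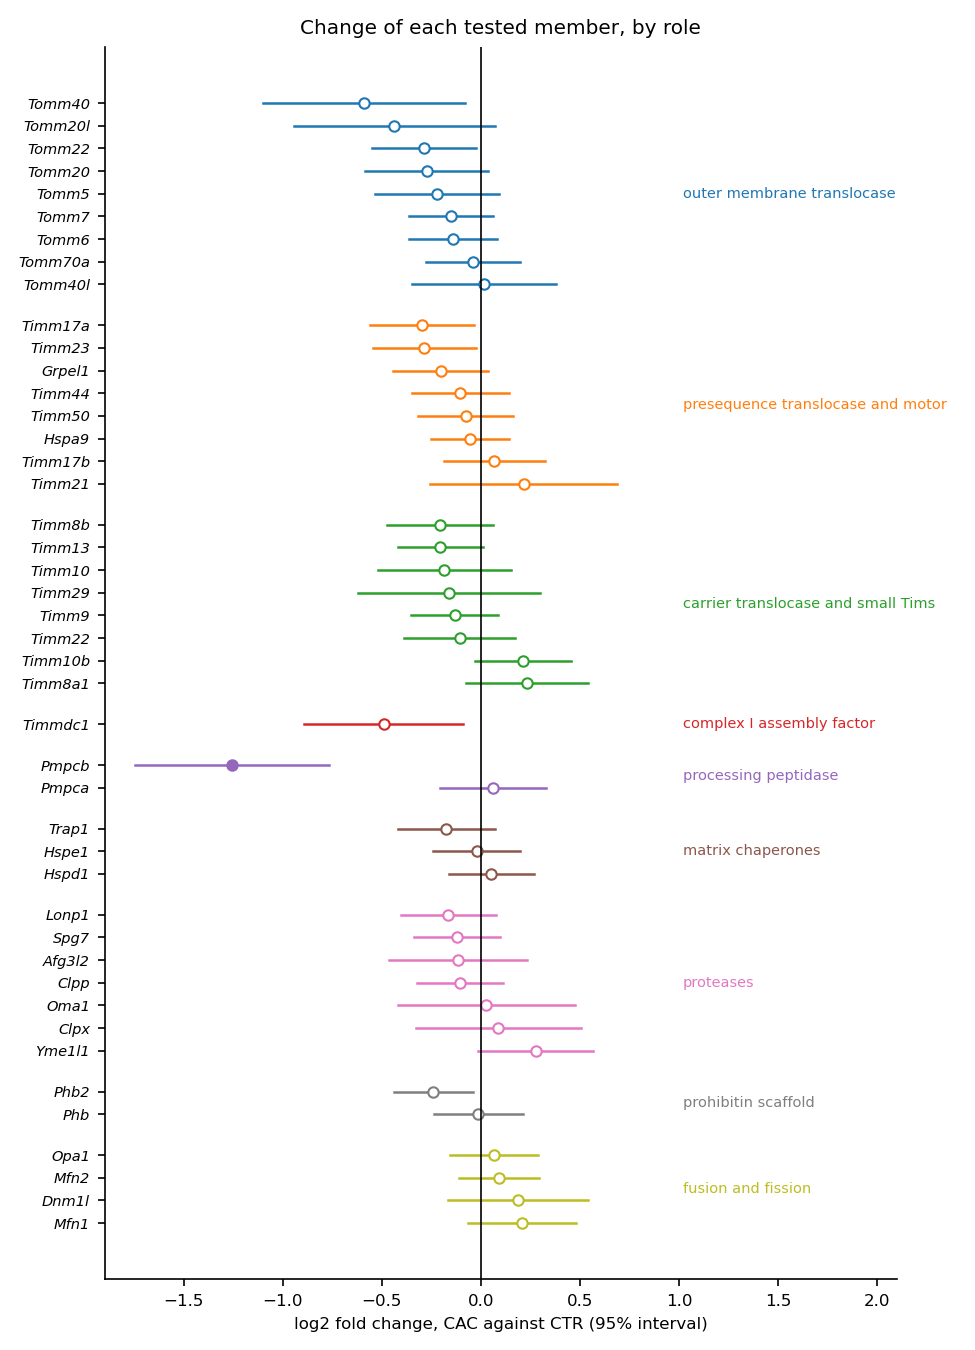
Log2 fold change of CAC against CTR (points) with its 95% interval (lines) for the 44 tested members, grouped and coloured by role. The filled point marks the member with an edgeR adjusted p below 0.05, Pmpcb, at -1.26, and the other estimates lie between -0.59 and 0.28.

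The 3 members that did not pass the filter had few reads. Tomm34 had 8, 16, 6 and 5 reads in CTR and 3, 2, 6.5 and 7 in CAC, Tomm6os had 0 to 6.5 reads per library, and Timm8a2 had 1 read in all, in CAC replicate 3. They are given as counts, with no fold change.

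Reads shared between loci touch many members. Of the 44 tested, 31 held fractions of reads in at least 1 library (70.5%, beside 55.2% of all genes tested). Another annotated gene overlapped 29 of the 44, and some overlapped each other, as Hspe1 and Hspd1 do. The share of all genes with such an overlap was not taken. Phb2, Tomm40, Timmdc1, Timm13 and Trap1 each have a gene annotated on the opposite strand. The strand setting of the counting is not given in the sources used here, so reads of such a pair cannot be told apart.

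Other genes of import and mitochondrial quality control were taken as a list of 46, of which 45 were tested. Their median log2 fold change was -0.03, with 30 negative and 15 positive, and 1 was lower and 0 higher at an edgeR adjusted p below 0.05. Hscb, a co-chaperone of iron-sulfur cluster assembly, was at 6.84, 8.52, 6.64 and 5.73 CPM in CTR and at 1.08, 3.72, 2.64 and 2.79 CPM in CAC, and the groups did not overlap. Behind these values lay only 19, 32, 16 and 26 reads in CTR and 2, 7, 9 and 8 in CAC. Hscb decreased in CAC: its log2 fold change was -1.40 (standard error 0.32, adjusted p = 0.0365 by edgeR). This call was lost in 7 alternative settings, which were DESeq2 (adjusted p = 0.0912), limma on the deposited signal (0.0547) and the fits without CTR replicate 1 or 2 or CAC replicate 1, 3 or 4 (0.0713 to 0.136). Stip1, a cytosolic co-chaperone that links HSP70 and HSP90, was at 45.7, 47.7, 49.0 and 59.3 CPM in CTR and at 93.0, 86.2, 52.2 and 67.3 CPM in CAC. CAC replicate 3 lay below CTR replicate 4, so the groups overlapped, and the log2 fold change was 0.54 (adjusted p = 0.1098 by edgeR, 0.0342 without CAC replicate 3 and 0.0102 with no filter). Gfer, the oxidase of the intermembrane space import pathway, was at 49.3, 55.7, 60.2 and 65.3 CPM in CTR and at 75.7, 83.0, 68.0 and 71.5 CPM in CAC. The groups did not overlap, with CAC higher, and the log2 fold change was 0.36 (adjusted p = 0.164 by edgeR). The stress-response factors Atf4, Atf5 and Ddit3 had log2 fold changes of 0.08, 0.07 and -0.03, none past the test.

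Promoter sequences were read for 42 of the 47 members from RefSeq (GRCm38.p6), in windows from 250 bases before to 50 after an annotated start. Of these members, 5 had more than 1 window, and a gene was counted if any of its windows held the letters. The letters CCGGAAG, the core bound by ETS factors and their relatives, stood on either strand in 20 of these 42 members (47.6%). They stood in 9.93% of all 27025 genes with a window and in 22.1% of the tested genes with one. The tested members with the core had a median log2 fold change of -0.13 (n = 18) and those without it -0.12 (n = 21). The core was found in 5 of the 7 members with an unadjusted p below 0.05, and not in the windows of Tomm40 and Timm17a. The 100 bases before the RefSeq start of these 5 are shown 5′ to 3′ on the strand of the gene, with the core in capitals, also where it lies on the other strand as CTTCCGG. The stretches are chr5:21737060-21737159 (plus strand) for Pmpcb, chr16:38522664-38522763 (minus) for Timmdc1, chr6:124712189-124712288 (plus) for Phb2, chr14:32201892-32201991 (minus) for Timm23 and chr15:79670768-79670867 (plus) for Tomm22.
Pmpcb: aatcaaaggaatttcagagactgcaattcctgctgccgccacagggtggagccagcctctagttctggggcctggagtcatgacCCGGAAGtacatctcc
Timmdc1: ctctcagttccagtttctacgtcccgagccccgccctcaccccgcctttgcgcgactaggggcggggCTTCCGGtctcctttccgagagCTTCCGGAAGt
Phb2: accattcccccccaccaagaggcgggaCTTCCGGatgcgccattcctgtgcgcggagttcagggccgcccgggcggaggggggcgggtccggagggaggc
Timm23: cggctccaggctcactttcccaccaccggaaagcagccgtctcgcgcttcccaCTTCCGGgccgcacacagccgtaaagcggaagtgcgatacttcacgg
Tomm22: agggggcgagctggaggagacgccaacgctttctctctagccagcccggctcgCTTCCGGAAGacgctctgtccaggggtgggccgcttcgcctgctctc

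Starts here are those of RefSeq. By the GENCODE M21 annotation, used here for coordinates, the last 19 of the 100 bases of Pmpcb already lie in the transcript. So do the last 7 of Timm23 and Tomm22. The annotation release used for the counts is not given in the sources used here. Pmpcb has the core once, beginning 16 bases before its RefSeq start and so inside the gene as GENCODE draws it, and Tomm22 and Timmdc1 have it in both directions in an overlapping pair. A match is a run of letters, not a bound site, and these data do not measure binding. Of the other motifs searched on both strands, the NRF1 motif, GCGCA and GCGC with 1 base between, was in 7 of the 42 members (16.7%, beside 12.7% of tested genes), AANATGGCG (YY1) in 4 (9.52%, beside 6.996% of tested genes), and TCAAGGTCA (ERR) in 1, Timm8b (2.38%, beside 0.275% of tested genes). CCAAT was in 15 (35.7%, beside 42.2% of tested and 41.1% of all genes) and the GC box GGGCGG in 26 (61.9%, beside 70.7% of tested and 38.2% of all genes).

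Hspe1 and Hspd1 lie head to head on chromosome 1 with overlapping starts, shown because both hold a heat shock element, searched as GAA, TTC and GAA with 2 bases between each, as does Timm9 (3 of 42 members, 7.14%, beside 0.606% of tested genes). In the 30 bases at chr1:55088053-55088082, on the strand of Hspe1, 2 matches on opposite strands overlap each other and an overlapping pair of ETS cores. By the GENCODE M21 annotation an exon of Hspd1 overlaps these bases and no exon of Hspe1 does. The capitals mark the heat shock matches.
Hspe1: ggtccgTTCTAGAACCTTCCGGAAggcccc

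The difference between the groups passed the test for neither gene of the pair.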

How the data were processed

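BAT RNA of 4 CTR and 4 CAC samples, grouped by their labels, was measured by single-end RNA-seq. Per the methods and the submitters' processing notes, the authors checked reads with FastQC 0.11.9, aligned them to mm10 with HISAT2 2.2.1 and counted them with featureCounts with multi-mapping. The strand setting is not given in the sources used here. The authors deposited expected counts without normalization for 56953 genes (25.1% to 28.4% of nonzero values of a library are fractions) and a DESeq2-normalized signal for 24792 genes, used for an alternative. All sample columns were used.

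Counts were rounded, filtered by filterByExpr, normalized by TMM and tested for CAC against CTR with edgeR's robust quasi-likelihood test and no covariate, with Benjamini-Hochberg adjustment over 9876 genes at a threshold of 0.05. In data simulated for this comparison, calls were made for 82 of 97 genes with a simulated log2 change of 1, for 96 of 97 with 2 and for 11 of 9449 with none. The simulation used the spread fitted to each expression level, without the spread particular to a gene. It held no change smaller than 1, so it gives no call rate for the smaller estimates above. Ratios used counts plus 0.5 and exact permutation tests. The depth, 1823167 to 4827956 counts a library, sets the precision, and limits based on counts cover counting error only. Coordinates are those of GRCm38 in GENCODE M21, matched by Ensembl ID without version (91.4% of IDs).

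The members and lists were chosen with earlier results of these data known. Members are named with all values if their unadjusted p was below 0.05 or the smallest of their role, and of the list of other import genes those called and the 3 with the smallest p. Pmpca falls outside this rule and is shown with all values as the partner of Pmpcb, a choice made after its values were seen. Alternatives were DESeq2, library size and upper quartile scaling, leaving out mitochondrially encoded genes, no filter, at least 10 counts in every library, pooled pseudogene counts, the replicate number as a block, limma on the deposited signal plus 1 and each library left out. Counting members without overlap under other scalings and with libraries left out was chosen after seeing the data. Some results are not reported here. Software was R 4.3.3 with edgeR 4.0.16, limma 3.58.1 and DESeq2 1.42.0, and Python 3.11.15 with pandas 2.3.3, numpy 2.4.6, scipy 1.17.1 and matplotlib 3.10.9.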

Additional observations from a re-analysis of the deposited data

How the results depend on the processing

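The 11 members named by p (not Pmpca, shown as the partner of Pmpcb) kept their direction in all 187 alternative values, and 185 kept their side of the threshold. Pmpcb lost its call without CAC replicate 2 and Tomm40 gained one with no filter, and the cause of neither was tested. The median over the tested members moved by less than the spread between libraries in every alternative and ranged from -0.13 to -0.10 when libraries were left out. With no filter, 351 genes, 2 of the 47 members and 2 of the other import genes were called. The number of genes tested without the filter is not given here, so these calls have no share beside them. At an unadjusted p below 0.05 the fit with no filter gave 8 members, all lower (17.0%, beside 4.55% of all genes). That 4.55% also covers genes with few reads, so it is not a like background for the members. With the replicate block 140 genes were called. Leaving out 1 library gave 42 genes (without CTR replicate 1) to 135, and 60 without CAC replicate 3, of 9965 to 10166 tested. It gave 0 to 1 members called. At an unadjusted p below 0.05 it gave 3 to 10 of the 44 members, beside 9.935% to 13.7% of all genes. The 10, without CTR replicate 4, were 8 lower (18.2%, beside 6.155% of all genes) and Mfn1 and Timm10b higher. DESeq2 gave 3, all lower (6.38%, beside 1.62% of all genes, also with no filter on low counts and so not a like background). Groups did not overlap in 4 members (9.09%, beside 7.04% of all genes), in 3 with library size (6.82% beside 6.501%), in 6 with upper quartile scaling (13.6% beside 7.36%) and in 5 to 9 with 1 library left out (11.4% to 20.5% beside 9.53% to 12.3%). Of the other import genes, 0 were called with DESeq2, with at least 10 counts in every library and with limma, and 0 to 1 with 1 library left out. Hscb falls short of 10 counts in every CAC library, so it was not tested under that filter. The log2 ratio of Pmpcb to Pmpca differed by -1.54 to -1.09 with 1 library left out (exact p 0.0286 to 0.0857). Correlations of deviations between libraries of the same replicate number were -0.02 to 0.04. They gave no sign of a shared origin, though they cannot exclude one. With the replicate block the ratio of Pmpcb to Pmpca stood at -1.31 with an exact p of 0.125, the smallest that 4 pairs allow. Depth limits the members with few reads, Tomm34, Timm8a2 and Tomm6os.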

Other observations

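CTR replicates 1 and 2 both lay above all other 6 libraries in 7 of the 44 tested members (15.9%), namely Hspa9, Phb2, Pmpcb, Timm13, Timm17a, Tomm20 and Tomm40, and in 6.67% of all 9876 genes tested. This pattern was looked for after the values of Pmpcb and Tomm40 had been seen, and no test was made of it.

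Among the other import and quality control genes, the groups did not overlap in 4 that were lower in CAC, Hscb, Dnajc19, Pam16 and Apoo (8.89% of the 45 tested, beside 3.4% of all genes), and in 1 that was higher, Gfer (2.22%, beside 3.64% of all genes). Dnajc19 and Pam16, which regulate the HSP70 motor of the presequence translocase, had log2 fold changes of -0.28 and -0.23 (adjusted p = 0.360 and 0.384 by edgeR).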
